A study of Rattus norvegicus with 3 samples.

Results

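The genes described here make cholesterol: Hmgcs1, Fdft1, Sqle, Lss, Cyp51 and Dhcr7, which encode enzymes of the pathway, and Srebf2, which encodes the transcription factor that drives it. They were found in the table by symbol, ignoring case; no threshold on values was used, but earlier results of these data were known when they were proposed. The deposited table holds 26353 entries. Of the 7 genes, 6 were found by symbol, and Cyp51 was found as CYP51A1, which RefSeq lists as its synonym. Polyadenylated RNA was measured in commissural neurons, which send axons across the ventral midline. They were taken from rat spinal cord at embryonic day 13 and kept in culture for 2 days. No treatment, strain or genotype is named, and all 3 libraries (1, 2 and 3 by their replicate numbers) form 1 group, so each gene was set against others of the same library. The labels do not state whether the libraries stem from separate cultures or animals; p-values therefore reflect the spread among these samples alone, and that spread may be technical.

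Cells make cholesterol from acetyl-CoA. The mevalonate arm yields farnesyl diphosphate, squalene synthase commits it to sterols, squalene is oxidised and closed to lanosterol, and a series of late steps turns lanosterol into cholesterol. The SREBP-2 protein is held in the endoplasmic reticulum while sterols are plentiful and is cut free to switch on these enzymes when sterols run low. Lipoproteins of the blood hardly cross into the mature central nervous system, which relies on its own synthesis. The cells here were embryonic and cultured, and their lipoprotein supply was not measured. Cholesterol is also attached to the Sonic hedgehog (Shh) ligand and binds its signal transducer Smo; Shh guided axon growth is the subject named in the title of the series.

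The promoter of Srebf2 is shown with those of Hmgcs1 and Lss, the highest and the lowest member by level, because SREBP-2 acts through short promoter sites together with NF-Y, which binds the CCAAT box, and Sp1, which binds the GC box. Each is the 250 bases before the RefSeq start in assembly GRCr8, 5′ to 3′ on the strand of the gene. Capitals mark TCACNCCA (core of the sterol regulatory element), CCAAT and GGGCGG (GC box) on either strand; these motifs were chosen after the sequences were seen. The table of promoters holds 5 of the 7 members. Srebf2 lies at chr7:115543057-115543306 on the plus strand, Hmgcs1 at chr2:53382054-53382303 on the plus strand, and Lss at chr20:12118231-12118480 on the minus strand.
Srebf2: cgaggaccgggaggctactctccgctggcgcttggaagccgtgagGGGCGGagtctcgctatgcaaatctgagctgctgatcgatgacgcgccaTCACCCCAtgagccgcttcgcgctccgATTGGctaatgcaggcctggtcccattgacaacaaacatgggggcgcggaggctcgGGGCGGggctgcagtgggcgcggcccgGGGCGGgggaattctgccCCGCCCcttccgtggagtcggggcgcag
Hmgcs1: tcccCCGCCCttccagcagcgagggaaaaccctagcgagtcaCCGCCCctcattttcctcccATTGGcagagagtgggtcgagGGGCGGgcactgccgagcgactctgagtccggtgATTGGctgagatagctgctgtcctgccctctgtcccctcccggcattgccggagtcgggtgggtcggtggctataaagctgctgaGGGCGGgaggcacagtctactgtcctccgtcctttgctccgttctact
Lss: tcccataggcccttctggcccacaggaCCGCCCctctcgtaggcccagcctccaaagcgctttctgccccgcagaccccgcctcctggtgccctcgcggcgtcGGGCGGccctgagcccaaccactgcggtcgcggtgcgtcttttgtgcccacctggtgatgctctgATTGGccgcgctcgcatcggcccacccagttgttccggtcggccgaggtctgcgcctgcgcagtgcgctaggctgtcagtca

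The Srebf2 window held the sterol regulatory core from 156 bases before the start and a CCAAT box from 129 bases before it. Among the 5 members, 1 held the sterol regulatory core, 3 the CCAAT box (Srebf2, Hmgcs1 and Lss) and 5 the GC box. Of 27457 promoter windows of the same length, 3.25% held the sterol regulatory core, 34.3% the CCAAT box and 32.4% the GC box. The windows of Cyp51 and Dhcr7 held a GC box and no other of these motifs; in Dhcr7 the GC boxes overlap by a base. Of 12 other synthesis enzymes in the table, 11 held the CCAAT box, 10 the GC box and 1, Msmo1, the sterol regulatory core. A match is a description of these letters, and binding was not measured.

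Levels are FPKM as the authors gave them, that is, fragments divided by transcript length and by mapped fragments, which allow genes of different length to be compared. The depth of the libraries is not given by FPKM, so no counting intervals were computed. Summed FPKM ranged from 19897900 to 26236600, mostly in a few unnamed entries; without entries above 10000 FPKM it ranged from 430187 to 477484 and was highest in library 2. Marker genes were read against 1 FPKM, which 63.7% of the entries tested exceeded, so a count near that share shows nothing particular to a list. Pan-neuronal genes were high (6 of 6 above 1 FPKM, from Snap25 at 81.5 to Tubb3 at 960 FPKM), as were the commissural axon markers (4 of 4, from Boc at 15.3 to Robo3 at 104). Genes of the progenitor list also passed (5 of 5, Nes 3.15 to Fabp7 564 FPKM), as did those of the proliferation list (5 of 5). Astrocyte genes passed in 3 of 5, oligodendrocyte genes in 2 of 5 (Mog at 15.3 FPKM, Olig1 at 0.010), microglial genes in 2 of 5 (Aif1 6.76, Cx3cr1 0.240), fibroblast and mural genes in 1 of 5, erythroid genes in 1 of 3 and endothelial genes in 0 of 5. RNA came from whole cultures, so no gene can be assigned to a cell type, and fewer cells of a type and less RNA per cell cannot be told apart.

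All 7 genes were expressed well above the middle of the table. Of the 17611 entries not listed at 0 throughout, 63.7% exceeded 1 FPKM in a one-sided test by limma with Benjamini-Hochberg (BH) adjustment over all of them, and 7 of the 7 members did, 6 of 6 without Cyp51. Their median was 78.2 FPKM, against 4.81 FPKM over all entries tested. Ranked among the entries tested, the members lay between the 85.2 percentile (Lss) and the 98.4 percentile (Hmgcs1). Passing 1 FPKM is common in this table, so the levels, and not that call, describe the members.

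Hmgcs1 (ENSRNOG00000016552), the cytosolic synthase that makes HMG-CoA at the entry of the pathway, had 270, 302 and 251 FPKM in libraries 1, 2 and 3, a mean of 274 ± 26.2 (SD, n = 3). It was the highest of the 7 in every library. Its lowest value, 251 FPKM, lay far above the highest value of any other member, 104 FPKM for Sqle in library 2.

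Fdft1 (ENSRNOG00000021314), squalene synthase, had 75.7, 87.3 and 71.5 FPKM in libraries 1, 2 and 3 (78.2 ± 8.17, SD, n = 3). This enzyme draws farnesyl diphosphate away from prenylation and into sterols. Fdps, which makes that substrate, had 178, 213 and 176 FPKM and exceeded Fdft1 by 2.42-fold (2.11 to 2.77 as the 95% interval, BH-adjusted p = 8.76e-05 by limma, 3 of 3 libraries). Fold differences here are on the log2(FPKM + 0.1) scale. The lowest Fdps value lay above the highest Fdft1 value.

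Sqle (ENSRNOG00000009550), squalene epoxidase, a rate-limiting step, had 89.7, 104 and 87.3 FPKM (93.7 ± 9.02, SD, n = 3). It was the second highest member in every library.

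Lss (ENSRNOG00000001267), lanosterol synthase, closes the sterol rings. It had 26.4, 34.0 and 35.8 FPKM (32.1 ± 4.95, SD, n = 3). Lss was the lowest member in every library and the most variable, with a coefficient of variation of 15.4%. It was also the only one of the 7 that was highest in library 3.

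Cyp51 (ENSRNOG00000007234), the P450 enzyme that removes the 14-alpha methyl group of lanosterol, had 79.3, 98.3 and 80.0 FPKM (85.9 ± 10.8, SD, n = 3). Msmo1, the oxidase of a demethylation further on, had 74.7, 94.3 and 66.0 FPKM. A difference between them was not shown (log2 ratio 0.14, interval -0.10 to 0.38, BH-adjusted p = 0.181 by limma), although Cyp51 was higher in 3 of 3 libraries. Both were highest in library 2.

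Dhcr7 (ENSRNOG00000020776), which reduces 7-dehydrocholesterol to cholesterol and is mutated in Smith-Lemli-Opitz syndrome, had 43.5, 49.4 and 44.8 FPKM (45.9 ± 3.08, SD, n = 3). Ebp, the sterol isomerase a few steps earlier, had 7.42, 9.27 and 8.92 FPKM, and Dhcr7 exceeded it by 5.34-fold (4.63 to 6.17, BH-adjusted p = 2.65e-05 by limma).

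Srebf2 (ENSRNOG00000007400), whose promoter carries the core shown above, had 60.8, 62.7 and 60.5 FPKM (61.3 ± 1.22, SD, n = 3). In FPKM as deposited, it was the steadiest member, with a coefficient of variation of 1.98% against 6.70% to 15.4% for the 6 enzymes. Over the 2328 entries within the members' range of means, the median SD of log2 values was 0.12, and that of the 7 members 0.14. Srebf2 had 0.028 and Lss 0.23. Library 2 as a whole was shifted up, as given below, and these spreads include that shift. After the library median was subtracted, Srebf2 deviated by 0.034, -0.054 and 0.007 in libraries 1, 2 and 3 (log2 scale). Dhcr7 then deviated by -0.029, 0.021 and -0.004, so it varied less than Srebf2.

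**Figure D1:**
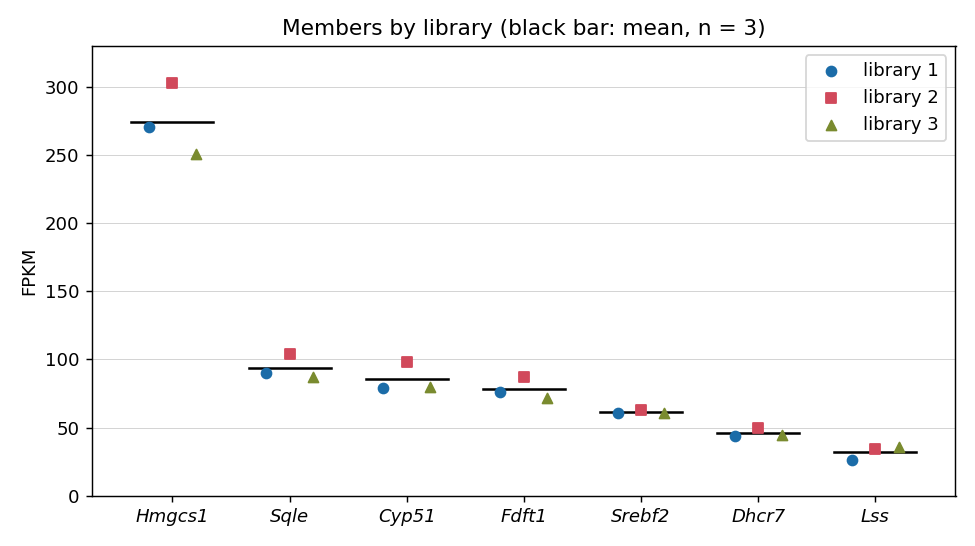
FPKM (vertical axis) of the 7 members in order of mean, with a point for each library and a black bar at the mean of 3. Hmgcs1 stands apart at 251 to 302 FPKM, Lss is lowest at 26.4 to 35.8, and library 2 is the highest point in all but Lss.

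The order of the means was Hmgcs1, Sqle, Cyp51, Fdft1, Srebf2, Dhcr7 and Lss. Of the 21 pairs, 19 differed past the threshold in limma's two-sided test of the ratio within each library. Almost any gene differs from another in this test. Of all entries, 99.2% differed from Hmgcs1, 97.6% from Fdft1, 98.1% from Sqle, 90.9% from Lss, 97.8% from Cyp51, 96.3% from Dhcr7 and 97.1% from Srebf2, so the share of member pairs that differed is near the background and the sizes carry the comparison.

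Hmgcs1 exceeded Sqle, its neighbour in the order, by 2.93-fold (2.55 to 3.37, BH-adjusted p = 3.07e-05 by limma). Sqle, Cyp51 and Fdft1 formed a close group. No difference was shown between Sqle and Cyp51 (log2 ratio 0.13, interval -0.05 to 0.30, BH-adjusted p = 0.112 by limma), or between Fdft1 and Cyp51 (log2 ratio -0.13, interval -0.34 to 0.07, adjusted p = 0.143 in the same limma test); with a trend in the variance prior and no robust setting, both pairs passed (adjusted p = 0.0183 and 0.0299). Sqle exceeded Fdft1 by 1.2-fold (1.05 to 1.37, BH-adjusted p = 0.0209 by limma, 3 of 3 libraries), and this call did not survive the loss of any library (adjusted p = 0.123 without library 1, 0.0553 without library 2 and 0.0793 without library 3). When the variances of both genes were summed, an alternative chosen after seeing the data, the adjusted p was 0.0507.

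Fdft1 exceeded Srebf2 by 1.27-fold (1.08 to 1.5, BH-adjusted p = 0.0168 by limma, 3 of 3 libraries), which was lost without library 1 (adjusted p = 0.0822) and without library 2 (adjusted p = 0.0517). Srebf2 exceeded Dhcr7 by 1.34-fold (1.18 to 1.51, BH-adjusted p = 0.00374 by limma). The groups of 3 values did not overlap in either pair. Dhcr7 exceeded Lss by 1.44-fold (1.09 to 1.89, BH-adjusted p = 0.0104 by limma), lost without library 2 (adjusted p = 0.159). In the fit against Lss, the spread of Lss itself is shared by every ratio and the error is treated as almost known (a median of 35220 degrees of freedom, against 3.58 to 4.004 for the other references); with the variances of both genes summed, Dhcr7 over Lss had an adjusted p of 0.00247. Hmgcs1 exceeded Lss by 8.58-fold (6.65 to 11.1, BH-adjusted p = 2.19e-05 by limma), the widest gap among the 21 pairs.

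The other enzymes of the pathway that are reported here were expressed too. All 6 other genes of the mevalonate arm and all 7 other genes of the late sterol steps lay above 1 FPKM in limma's test (background 63.7%). With the 6 member enzymes these make 19 enzymes, whose means ran from 6.34 FPKM (Hsd17b7) to 274 FPKM (Hmgcs1) with a median of 32.1, a 43.3-fold range. Of the 6 member enzymes, 3 were among the 5 highest of the 19: Hmgcs1 (rank 1), Sqle (rank 3) and Cyp51 (rank 4), beside Fdps (rank 2) and Msmo1 (rank 5). Fdft1 ranked 6, Dhcr7 8 and Lss 10.

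In the mevalonate arm, the kinases and the decarboxylase were lower in every library than Hmgcs1 before them and Idi1 after them. Mvk had 24.5 ± 3.70 FPKM, Pmvk 24.99 ± 3.05 and Mvd 27.7 ± 3.32 (SD, n = 3). Acat2, which joins acetyl-CoA units at the start, had 45.1 ± 6.06 FPKM, and Idi1, the isomerase after Mvd, 56.1 ± 8.39. Among the late steps, Nsdhl, a dehydrogenase of the demethylation complex, had 30.7 ± 4.37 FPKM, and its ratio to Lss did not differ from 1 past the threshold (log2 ratio 0.06, interval -0.34 to 0.45, BH-adjusted p = 0.783 by limma). Sc5d, a desaturase, had 29.98 ± 2.55 FPKM. Tm7sf2 and Lbr both encode sterol C14 reductases; Tm7sf2 had 22 ± 1.83 FPKM and Lbr, which is also an inner nuclear membrane protein, 13.0 ± 0.274. Hsd17b7, the ketoreductase of the complex, was lowest at 6.34 ± 0.639 FPKM.

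**Figure D2:**
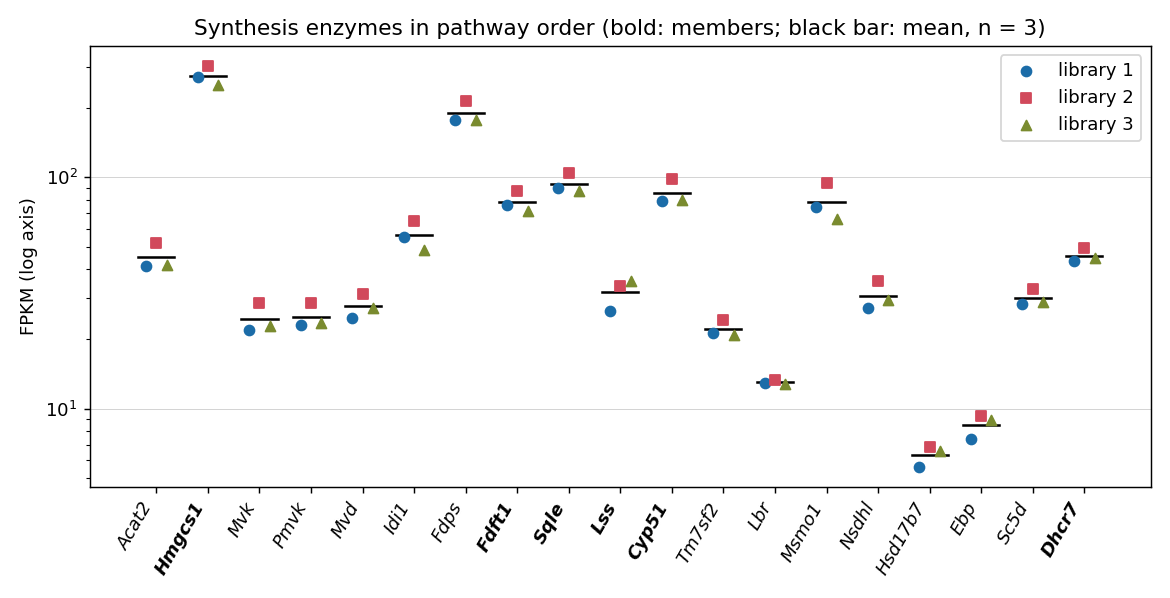
FPKM on a log axis for 19 synthesis enzymes in pathway order, members in bold, with a point for each library and a black bar at the mean of 3. Levels are highest at Hmgcs1 and Fdps and lowest at Hsd17b7 and Ebp, and library 2 is the highest point for 18 of 19 enzymes.

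Genes of the SREBP control list were all present. The list holds Srebf1, the paralogue of Srebf2, beside genes that control SREBP-2. All 6 of the control list lay above 1 FPKM (background 63.7%), and Srebf2 was above each of them in every library. Insig1, which retains the precursor and is itself switched on by SREBP, had 44.6, 55.3 and 41.8 FPKM. Srebf2 exceeded it by 1.31-fold (1.08 to 1.58, BH-adjusted p = 0.0184 by limma), lost without library 1 (adjusted p = 0.0672) and without library 3 (adjusted p = 0.0827). Insig2, the second retention protein, had 6.33, 8.01 and 6.13 FPKM, and Srebf2 exceeded it by 8.94-fold (7.4 to 10.8, BH-adjusted p = 1.42e-05 by limma). Srebf2 exceeded Scap, the sterol-sensing escort (15.9, 18.2 and 15.5 FPKM), by 3.7-fold (3.22 to 4.27, BH-adjusted p = 2.78e-05 by limma). The protease genes Mbtps1 and Mbtps2 had 25.1 ± 1.49 and 10.9 ± 0.752 FPKM. Srebf1, the paralogue tied mainly to fatty acid synthesis, had 11.3, 12.1 and 10.8 FPKM, and Srebf2 exceeded it by 5.35-fold (4.71 to 6.06, BH-adjusted p = 9.93e-06 by limma, 3 of 3 libraries).

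Of 8 genes for uptake and lysosomal release reported here, 7 lay above 1 FPKM (background 63.7%), with a median of 13.1 FPKM. The lipoprotein receptor genes Vldlr and Lrp8, whose products also bind reelin, had 13.0 ± 0.435 and 33.8 ± 1.76 FPKM. Lrp1, a large endocytic receptor, had 34.9, 16.1 and 34.2 FPKM, so library 2 was lowest. Npc2 and Npc1, which pass cholesterol out of lysosomes, had 54.6 ± 6.74 and 13.3 ± 0.721 FPKM. Lipa, the lysosomal esterase, had 3.20 ± 0.516 FPKM and Scarb1, an HDL receptor, 2.68 ± 0.503. Mylip, a ubiquitin ligase gene, had 0.787 ± 0.162 FPKM and did not pass. Npc2 was the only gene of this list above Dhcr7 in every library.

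Of 10 genes for export, storage and turnover, 7 lay above 1 FPKM (background 63.7%), with a median of 3.11 FPKM. Nr1h2, the LXR-beta receptor that answers to oxysterols, had 20.02 ± 1.11 FPKM, while Nr1h3 (LXR-alpha) had 0.507 ± 0.0751. The exporters Abcg1 and Abcg4 had 8.38 ± 0.342 and 2.90 ± 0.104 FPKM, and Abca1 had 1.31 ± 0.371 and missed the threshold (BH-adjusted p = 0.0729 by limma); without library 2 it passed (adjusted p = 0.0327). Cyp46a1, which makes the brain's main exported oxysterol, had 4.09 ± 0.195 FPKM and Soat1, which stores cholesterol as esters, 3.32 ± 0.627. Ch25h, a further hydroxylase, had 1.62, 1.16 and 1.11 FPKM and passed narrowly (BH-adjusted p = 0.0470 by limma), but not without library 1 (adjusted p = 0.298) or library 2 (adjusted p = 0.0937). The call on Ch25h was also lost with a pseudocount of 1 (adjusted p = 0.0528), with no filter (0.0533), with the plain prior (0.0579) and on rescaling to a common upper quartile (0.0582) or to the mean sum of FPKM (0.0962). Cyp27a1 was listed at 0, 0.04 and 0.02 FPKM.

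Apoe, the main lipid carrier of the brain, had 3.20, 13.9 and 11.4 FPKM in libraries 1, 2 and 3, so library 1 was lowest. It passed (BH-adjusted p = 0.0269 by limma), but not without library 3 (adjusted p = 0.182) or when no entry was filtered out (adjusted p = 0.0560). The microglia and macrophage list moved in the same direction, with a summed level of 7.88, 11.9 and 12.5 FPKM, highest in library 3. In it, 4 of 5 genes were lowest in library 1 and none was at 0. The progenitor list also had 4 of 5 genes lowest there, with 929, 1185 and 965 FPKM, highest in library 2 as Apoe was. Other lists did not move this way. The astrocyte list was nearly level (35.5, 35.3 and 37.4 FPKM), with 2 of 5 genes lowest in library 1. The erythroid list fell from library 1 to library 3 (57.8, 31.7 and 13.1 FPKM). Of the 51 pathway genes, 22 were lowest in library 1. The share of all entries that were lowest in library 1 is not given here, so the counts of 4 of 5 show nothing particular to these lists. The part of any kind of cell in the Apoe difference was not tested.

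**Figure D3:**
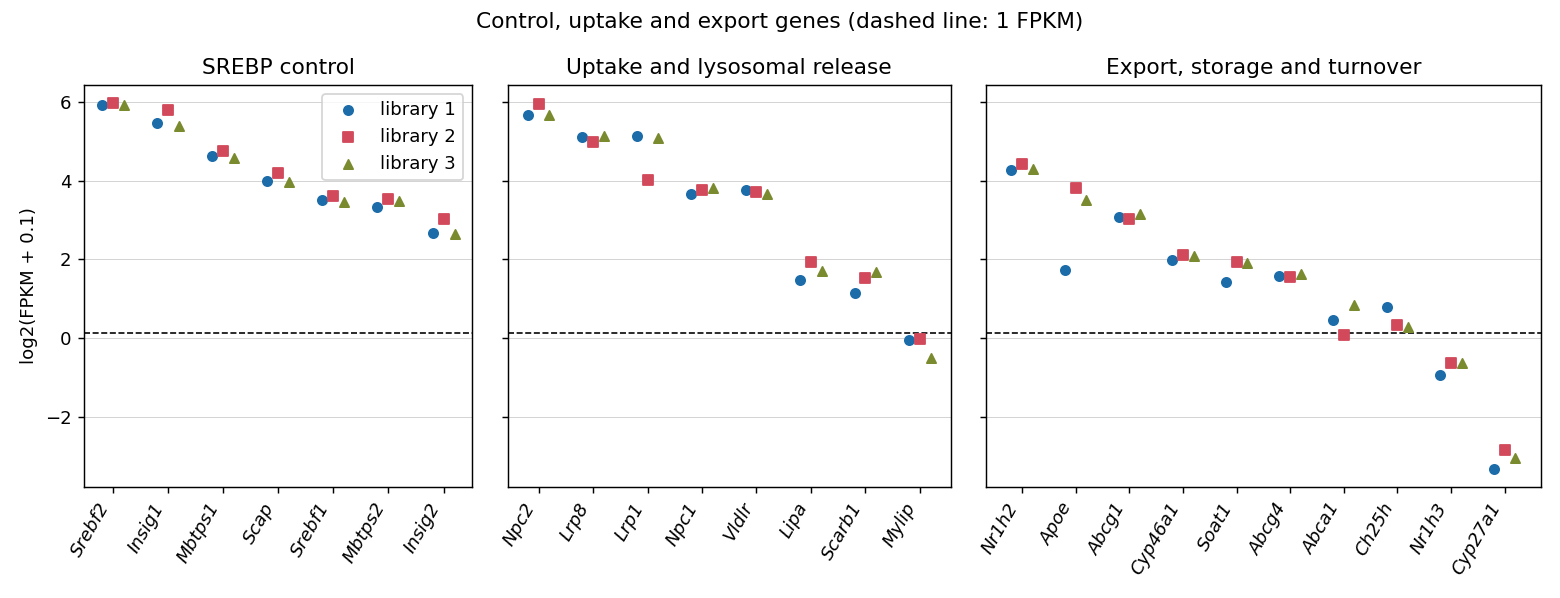
log2(FPKM + 0.1) by library for Srebf2 with the SREBP control genes, for the uptake and lysosomal release genes, and for the export, storage and turnover genes; the dashed line is 1 FPKM. Srebf2 leads its panel, Lrp1 is low in library 2 and Apoe low in library 1.

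The members differed little between libraries, by 1.04-fold (Srebf2) to 1.35-fold (Lss) from the lowest to the highest value. Library 2 was the highest for 6 of 7 members, against 62.1% of the 11662 entries with a mean of at least 1 FPKM. It was also the highest for 6 of 6 other mevalonate genes, 7 of 7 other late genes and 6 of 6 genes of the control list, and for 18 of the 19 enzymes. Uptake genes were highest there in 3 of 8 cases and export, storage and turnover genes in 5 of 10. Each library holds 1 value per gene, so these are descriptions without a test.

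The library as a whole was shifted the same way. The median of all entries with a mean of at least 1 FPKM lay 0.09 above the gene's own mean in library 2 on the log2 scale. After that median was subtracted, the members deviated by a median of 0.06 in library 2, -0.01 in library 1 and -0.07 in library 3. Cyp51 was the farthest up in library 2, at 0.12, and Srebf2 lay below the median, at -0.05. The other 13 synthesis enzymes had a median of 0.09, with Msmo1 at 0.20 and Lbr at -0.05. All 5 progenitor genes were highest in library 2 as well (summed level 929, 1185 and 965 FPKM, none at 0), as were 4 of 6 pan-neuronal genes (2200, 2376 and 2135 FPKM). Of the commissural axon genes, 3 of 4 were lowest there (245, 172 and 252 FPKM), and the other, Boc, was highest there. Over all entries with a mean of at least 1 FPKM, 62.1% were highest and 21.5% lowest in library 2, so the pan-neuronal count is near that share. The part of the mix of cells in the members' deviations was not tested.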

How the data were processed

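The FPKM values were deposited by the authors as 1 table, 1 column for each library; FastQC, Trimmomatic 0.22, STAR and the build rn6 are named per the submitters' processing notes; which tool computed FPKM, and with which annotation, is not given in the sources used here. Libraries were stranded, polyadenylated and read as pairs of 50 bp, per the labels' protocols. The deposited FPKM were taken as log2(FPKM + 0.1). Levels were tested with limma 3.58.1 (R 4.3.3, statmod 1.5.0) over 17611 entries above 0 in at least 1 library, one-sided against 1 FPKM, with trend and robust prior. Ratios to each member were tested in 1 fit per reference over all entries, two-sided, with a robust prior. Benjamini-Hochberg adjustment ran over all entries, at 0.05. Ratios to 1 reference share its spread, so they are not independent. With 3 libraries, the smallest p of an exact sign-flip test is 0.25. Tests were also run on simulated data with independent noise and no shift of a whole library. That run does not show how the p-values behave under such a shift.

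The members and lists were chosen with earlier results of these data known. All members and all pathway genes reported here were named, and of a marker list the highest and the lowest, or its count alone. Some genes of the lists are not reported here and are left out of counts and pairs. All 51 pathway and 48 marker genes matched by symbol; of 2 Elovl6 entries the higher was used. Identical values made up 0.0744% to 0.297% of 8069 described genes, so no library was a copy of another. The libraries were counted as separate samples, although such values cannot tell separate cultures from repeats of the same culture. Alternatives changed the pseudocount, filter, prior, library scale, level, margin and libraries. Promoters are from RefSeq (GRCr8) and were not tied to coordinates of the deposited table. Python 3.11.15, pandas 2.3.3 and matplotlib 3.10.9 drew the figures.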

Additional observations from a re-analysis of the deposited data

How the results depend on the processing

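All 7 members stayed above 1 FPKM under every alternative except a rescaling of each library to a sum of 1000000, most of which a few unnamed entries hold: Lss then had 1.35 (adjusted p = 0.147) and 6 of 7 passed. Under that rescaling 11 of the 51 pathway genes passed in place of 47, and under the others 39 to 49. Of the 21 member pairs, 19 differed in the fit reported, 16 to 18 when 1 library was left out, 21 with a trend in the prior and no robust setting, 13 when the test asked for 1.5-fold or more, and 18 with summed variances; without Cyp51 it was 15 of 15. Of 8 planned pairs, 6 differed, and 5 or 6 with 1 library left out. The log2 ratio of Lss to Nsdhl ran from -0.053 (without library 3) to 0.12 (without library 2). Without subtraction of the library median, the members' median deviation in library 2 was 0.14. No direction of any other pair turned in the alternatives run. No paired analysis was possible because all libraries form 1 group. FPKM gives no depth, so counting error is unknown; errors of length or mapping common to the libraries are not covered.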

Other observations

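Fatty acid synthesis, the branch of lipid synthesis tied mainly to Srebf1, was strongly represented. All 7 genes lay above 1 FPKM (63.7% of all entries did), with a median of 69.5 FPKM. Scd, the stearoyl-CoA desaturase, had 439, 485 and 437 FPKM in libraries 1, 2 and 3 and lay above Hmgcs1 in each. Fads2 and Fads1, desaturases of polyunsaturated fatty acids, had 123 ± 10.5 and 52.0 ± 3.70 FPKM (SD, n = 3). Acly, which supplies cytosolic acetyl-CoA to both branches, had 116 ± 2.64 FPKM. Fasn, the fatty acid synthase, had 76.3, 54.4 and 77.9 FPKM and Acaca, the carboxylase before it, 20.8, 17.0 and 22. Both were lowest in library 2, as were 21.5% of the entries with a mean of at least 1 FPKM. Of the 7 genes, 4 (Scd, Acly, Fads1 and Fads2) were highest in library 2, as were 62.1% of those entries and 18 of 19 cholesterol enzymes. Elovl6, an elongase, had 10.99 ± 1.15 FPKM.

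Genes of the other uses of farnesyl diphosphate were lower than Fdft1 in every library. All 7 lay above 1 FPKM (63.7% of all entries did), with a median of 12.7 FPKM. Nus1 and Dhdds, which together make dolichol, had 21.5 ± 1.88 and 21.4 ± 2.05 FPKM. The prenyltransferase genes Pggt1b and Fntb had 14.3 ± 0.692 and 12.7 ± 1.43 FPKM, and Ggps1, which makes geranylgeranyl diphosphate, 10.9 ± 0.954. Pdss1 and Pdss2, for the tail of coenzyme Q, had 8.02 ± 0.486 and 3.65 ± 0.873 FPKM.

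The described genes with a mean of at least 5 FPKM whose profile over the 3 libraries lay nearest to the mean profile of the members were RGD1307262, Cep41, Commd2, Usp21 and Dhx32, at distances of 0.00147 to 0.00432 on the log2 scale. Of 8017 such genes, 86.7% lay no farther from that profile than Lss, the farthest member, so nearness over 3 libraries is common. Sc5d, the nearest of the other synthesis enzymes, ranked 70.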
